A study of Saccharomyces cerevisiae with 10 samples.

Results

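The transcriptome of yeast 4 h after a shift from dextrose to ethanol was compared with that at the time of the shift, using the arrays that carry the 4 h and the 0 h label. There were 2 arrays at each of these times, 4 of the 10 arrays of the series. The other 6 arrays were taken at 0.5, 1 and 12 h. All 5449 genes with a name on the array were members of the comparison, each read from its brightest probe set, the group of probes that reports 1 transcript, and they stood for 5449 of the 5716 probe sets in the table. Every value below is an intensity or a ratio of intensities of the same probe set, since the brightness of different probe sets cannot be compared.

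The cells were a pool of Saccharomyces cerevisiae strains built for the barcoded protein complementation assay (BC-PCA), on an S288c background. Each strain is a diploid made by mating a MATa and a MATα parent, and in each strain a pair of proteins carries the complementary fragments of a murine dihydrofolate reductase that resists methotrexate, so that growth in methotrexate depends on the binding of the pair. The pool was grown in minimal medium (yeast nitrogen base and ammonium sulfate) with dextrose and moved to the same medium with ethanol and methotrexate, and both the 0 h and the 4 h cells are described as being in ethanol and methotrexate, at 0 h only just so. The study took this time course to set mRNA changes beside changes of protein complexes. The sources describe the dextrose culture both with and without methotrexate, so drug exposure may begin with the carbon source change at 0 h, and the comparison cannot tell the responses to them apart.

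Yeast that has glucose ferments it and represses the genes for other carbon sources. When glucose is gone the kinase Snf1 is active, repressors such as Mig1 and Mig2 no longer hold these genes down, and the activators Adr1, Cat8 and Hap4 turn them on. Ethanol is then oxidised to acetate and made into acetyl-CoA, which is burned in the mitochondria by the TCA cycle and the respiratory chain, or built up into sugar through the glyoxylate cycle and gluconeogenesis.

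Arrays of the same time are labelled biological replicates. A single pool culture is described, however, and nothing says that separate cultures were grown, so the p-values measure the spread between arrays, which may be technical. The median intensity of the 10 arrays lay between 316 and 351, and log2 values correlated at r = 0.984 between the arrays of 0 h and at r = 0.985 between those of 4 h. The arrays differed by more than 2-fold in 98 genes at 0 h and in 89 at 4 h. Intensities are on the linear scale of robust multiarray analysis (RMA), which makes arrays alike in their overall brightness, so that a change of the total mRNA per cell is not seen, and in a bulk culture fewer cells with a transcript and less of it per cell cannot be told apart. The scale has no detection call and no zero. The 23 haploid-specific and mating genes, which diploids repress, ranged from 8.05 to 361 at 0 h and from 6.86 to 186 at 4 h, and their summed intensity was 2902 and 2585 at 0 h and 1585 and 1443 at 4 h. Of these, 10 fell and 0 rose at 4 h (43.5% lower, where 23.2% of all genes were lower and 19.4% higher). MF(ALPHA)1, the α-factor gene, changed by −2.37 ± 0.24 and STE2, its receptor, by −2.07 ± 0.31. Low readings weigh on these log2 values, which were −0.61 and −1.47 with 50 added to each intensity. The part of the 23 genes in the other results was not tested. With the dimmest 20% of genes left out, 1 of the 3 markers still measured was lower.

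At 4 h, 1056 genes were higher and 1265 were lower than at 0 h, in all 42.6% of those tested (19.4% higher and 23.2% lower). The call is a Benjamini-Hochberg adjusted p under 0.05 over all 5449 genes in limma, fitted to the log2 intensities of the 10 arrays, and fold changes are given as log2 of 4 h over 0 h with their standard error (n = 2 arrays at each time). A change of at least 2-fold was found in 557 of the genes called higher (10.2% of all genes) and in 540 of those called lower (9.91%). The rises ran to greater sizes than the falls. 181 genes rose at least 4-fold against 85 that fell as much, and 44 rose at least 16-fold against 3. Both 4 h arrays lay above both 0 h arrays in 1781 genes and below them in 2298, and the arrays of the times overlapped in the other 1370. Of all genes 42.6% passed the test. The median gene changed by −0.09. With 4 h replicate 2 left out the counts were 689 higher and 694 lower, and with 0 h replicate 2 left out they were 745 higher and 810 lower, where the array left alone is assumed to vary like the other times.

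**Figure D1:**
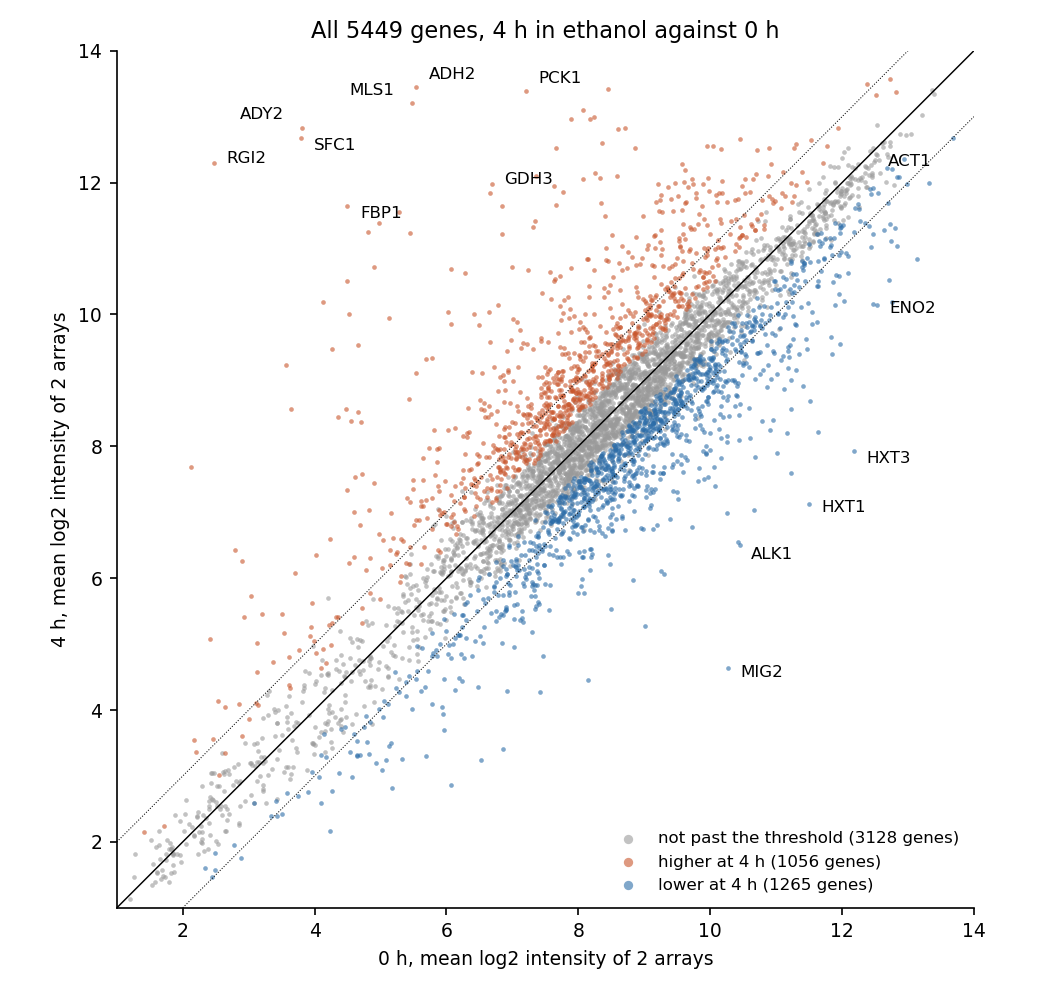
Mean log2 RMA intensity at 4 h (vertical) against 0 h (horizontal) for each of the 5449 genes, 2 arrays at each time; the solid line marks no change and the dotted lines a 2-fold change. Genes called higher (1056) and lower (1265) are coloured, and the farthest from the line are genes nearly dark at 0 h and bright at 4 h, such as RGI2, ADY2 and SFC1.

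The 15 largest rises were from low intensities, at or below 153 on every 0 h array. RGI2, a gene induced in respiratory growth, read 5.38 and 5.75 at 0 h and 4344 and 5773 at 4 h (9.81 ± 0.19, adjusted p = 4.45e-09). ADY2, an acetate transporter, read 19.3 and 10.3 at 0 h and 6797 and 7855 at 4 h (9.02 ± 0.26, adjusted p = 5.17e-08), and SFC1, the mitochondrial succinate-fumarate carrier, 19.1 and 10.2 at 0 h and 6461 and 6658 at 4 h (8.88 ± 0.26, adjusted p = 5.17e-08). The 4 h arrays of each lay far above the 0 h arrays. ADH2, the alcohol dehydrogenase that oxidises ethanol, went from 83.8 and 25.9 to 11240 and 11180 (7.91 ± 0.44, adjusted p = 3.38e-06), MLS1, malate synthase of the glyoxylate cycle, from 66.5 and 29.9 to 9826 and 9041 (7.72 ± 0.31, adjusted p = 5.19e-07), and FBP1, fructose bisphosphatase of gluconeogenesis, from 44.0 and 11.6 to 3289 and 3122 (7.15 ± 0.61, adjusted p = 3.11e-05). In these 3 genes the arrays of 4 h were close to each other, while 0 h replicate 1 read well above replicate 2. PCK1, which makes phosphoenolpyruvate from oxaloacetate in the committed step of gluconeogenesis, went from 153 and 143 to 10770 and 10620 (6.17 ± 0.48, adjusted p = 1.99e-05).

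The other 8 of the 15 included further transporters. PUT4, the proline permease, rose by 6.43 ± 0.20, TAT1, a permease for aromatic and branched-chain amino acids, by 6.01 ± 0.35, and ATO2, a relative of ADY2 linked to ammonium export, by 5.79 ± 0.50. POT1, the thiolase that closes each round of peroxisomal β-oxidation, read 21.0 and 6.71 at 0 h and 432 and 848 at 4 h (5.67 ± 0.58, adjusted p = 9.51e-05), so that the arrays of 4 h lay far above those of 0 h but also well apart from each other. REG2, a regulatory subunit of the phosphatase Glc7, rose by 6.29 ± 0.27, and YGR067C, a zinc finger protein, by 6.41 ± 0.18. YIG1 (6.05 ± 0.34, adjusted p = 3.54e-06) and BOP2 (5.82 ± 0.56, adjusted p = 6.74e-05) complete the 15. Ratios from probe sets this dim depend on how low readings are treated. With 50 added to every intensity, all 15 stayed past the threshold, with log2 changes from 3.37 to 6.83, and RGI2 came to 6.51 in place of 9.81.

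The 15 largest falls began with glucose signalling and glucose uptake. MIG2, a repressor that acts while glucose is present, read 1093 and 1382 at 0 h and 17.6 and 35.1 at 4 h (−5.63 ± 0.39, adjusted p = 1.09e-05). HXT1, the low-affinity glucose transporter, read 2547 and 3268 at 0 h and 90.4 and 216 at 4 h (−4.37 ± 0.38, adjusted p = 3.74e-05), and HXT3, its close relative, 4499 and 4828 at 0 h and 195 and 307 at 4 h (−4.25 ± 0.23, adjusted p = 2.57e-06). In these 3 genes the 4 h arrays were far below the 0 h arrays, and 4 h replicate 2 was above replicate 1. PFK27, which makes an activator of glycolysis, fell from 377 and 708 to 29.9 and 49.8 (−3.74 ± 0.49, adjusted p = 0.000363). ALK1, a haspin-type protein kinase, read 1258 and 1510 at 0 h and 92.2 and 94.6 at 4 h, the closest agreement between 4 h arrays among these 15 (−3.88 ± 0.17, adjusted p = 5.94e-07).

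Other transporters and amino acid enzymes were among the 15. MCH5, the riboflavin transporter, fell by 3.62 ± 0.24 on the log2 scale and QDR2, a multidrug transporter, from 3146 and 3212 to 228 and 388 (−3.42 ± 0.31, adjusted p = 4.5e-05). IRC7, which releases sulfur from cysteine, changed by −3.94 ± 0.29, and CHA1, the serine and threonine deaminase, by −3.27 ± 0.36. DAK2, a dihydroxyacetone kinase, went from 55.0 and 81.2 to 5.74 and 9.29 (−3.20 ± 0.38, adjusted p = 0.000215), a dim probe set throughout. The rest were YGR035C (−3.69 ± 0.35), YJL213W (−3.63 ± 0.30), INA1 (−3.45 ± 0.51), YHR210C (−3.29 ± 0.23) and the sporulation gene MUM3 (−3.24 ± 0.30). On the scale with 50 added all 15 remained called, at −4.08 to −1.03.

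**Figure D2:**
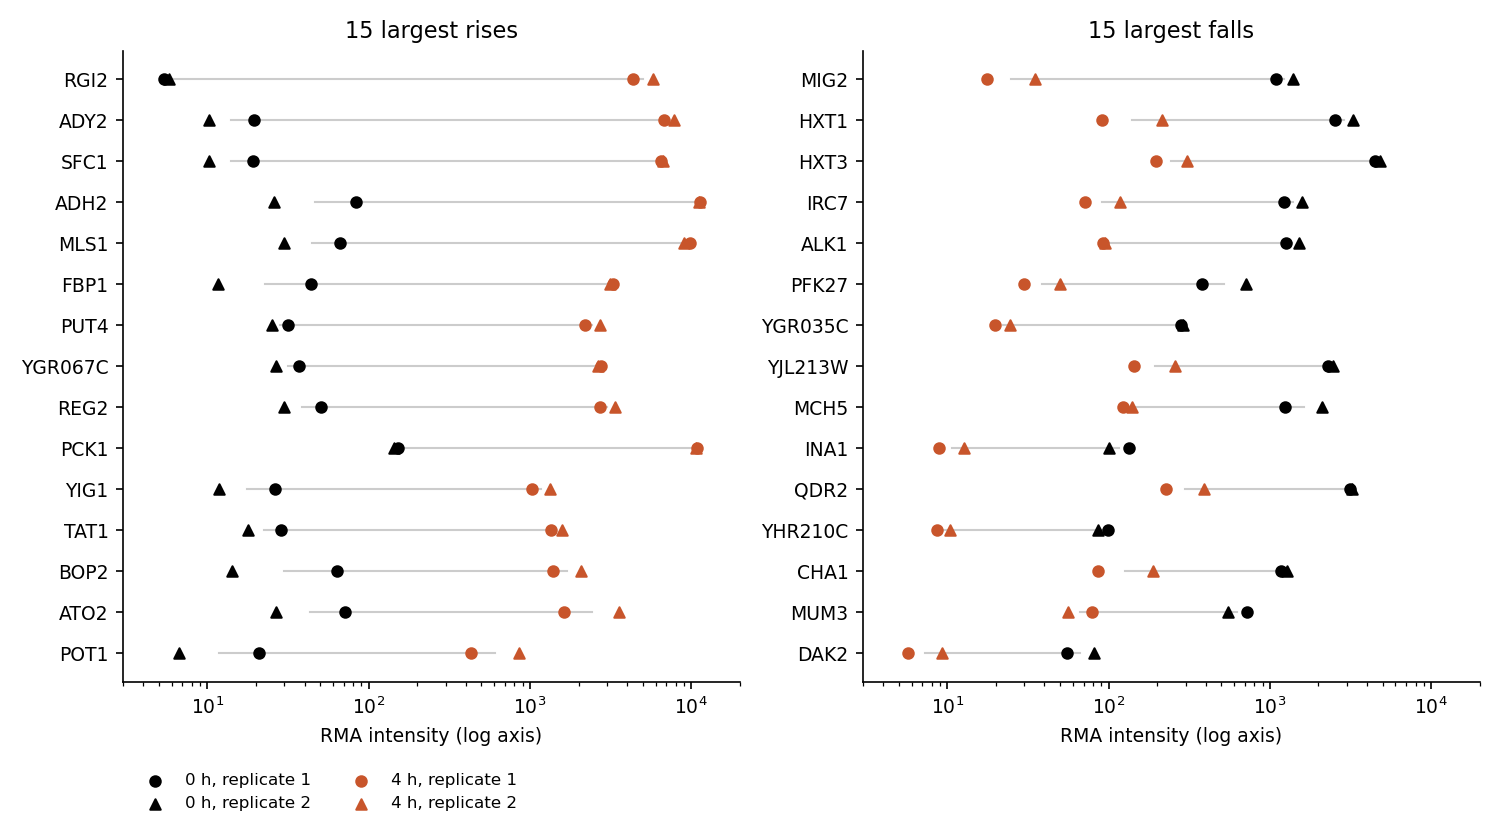
RMA intensity (horizontal, log axis) of the 15 genes with the largest rise (left) and the largest fall (right) at 4 h; black marks are the 0 h arrays and orange marks the 4 h arrays, circles replicate 1 and triangles replicate 2, joined at the geometric means. No gene has overlapping times, which the choice by size of change favours, and only 25.1% of all genes overlap. ADY2 runs from 19.3 and 10.3 to 6797 and 7855 while MIG2 runs from 1093 and 1382 to 17.6 and 35.1.

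Most genes of the path from ethanol to sugar rose. Of 15 genes of ethanol oxidation and acetate entry, 12 rose and 1 fell (80.0% and 6.67%, against 19.4% and 23.2% of all genes), with a median change of 4.25, and all 9 genes of the glyoxylate cycle and gluconeogenesis rose, with a median of 4.97. Beside ADH2 and ADY2, ACS1, the acetyl-CoA synthetase used without glucose, read 297 and 243 at 0 h and 8472 and 9163 at 4 h (5.04 ± 0.21, adjusted p = 5.94e-07), and ACH1, which moves CoA between acetate and other acids, 283 and 199.6 at 0 h and 7165 and 8867 at 4 h (5.07 ± 0.24, adjusted p = 1.07e-06). In both the times were far apart. The member that fell was ALD5, a mitochondrial aldehyde dehydrogenase, from 5127 and 5290 to 2579 and 2805 (−0.95 ± 0.15, adjusted p = 0.00106). The other times in ethanol, set against the same 0 h arrays, gave like medians. That of the glyoxylate and gluconeogenesis genes was, in order of time, 4.08 (0.5 h), 4.63 (1 h) and 4.42 (12 h). PCK1 had means at 0.5, 1, 4 and 12 h of 2877, 4021, 10690 and 9301, and its level at 4 h against the mean of the other ethanol times missed the threshold (1.28 ± 0.40, adjusted p = 0.0538), which it passed without 1 h replicate 1, 0.5 h replicate 1 or 0.5 h replicate 2 (adjusted p from 0.0143 to 0.0481), with the dimmest 20% of genes left out (0.0421) or with an intensity trend of the variance (0.0387), and with the replicate number as a block.

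Mitochondrial energy genes rose in nearly every member. All 16 measured genes of the TCA cycle were higher (median 2.34), as were 37 of 40 genes of the respiratory chain and the ATP synthase, with 1 lower (median 1.66), and 63 of 71 mitochondrial ribosomal proteins, with 1 lower (median 0.91). CIT3, a mitochondrial citrate and methylcitrate synthase, read 236 and 112 at 0 h and 2059 and 3615 at 4 h (4.07 ± 0.41, adjusted p = 8.08e-05). SDH1, the flavoprotein of succinate dehydrogenase, read 341 and 312 at 0 h and 3547 and 3051 at 4 h (3.33 ± 0.17, adjusted p = 2.19e-06), and ACO1, aconitase, 757 and 767 at 0 h and 4905 and 5101 at 4 h (2.71 ± 0.15, adjusted p = 3.59e-06). These 3 had no overlap between times, where 25.1% of all genes had one, and the 4 h arrays of CIT3 were the least alike. In the respiratory chain NDE2, an external NADH dehydrogenase, rose from 316 and 151 to 3471 and 4004 (4.10 ± 0.29, adjusted p = 1.24e-05), RIP1, the Rieske protein of complex III, from 292 and 397 to 2985 and 2782 (3.08 ± 0.19, adjusted p = 5.54e-06), and NDI1, the internal NADH dehydrogenase, from 195 and 204 to 1461 and 1528 (2.90 ± 0.24, adjusted p = 2.69e-05). CYC1, the main cytochrome c, read 114 and 219.9 at 0 h and 2885 and 2280 at 4 h (4.01 ± 0.42, adjusted p = 0.000108), with means at 0.5, 1 and 12 h of 786, 547 and 3117. Its 4 h level was above the mean of the other ethanol times (1.27 ± 0.34, adjusted p = 0.0327), a call lost without 4 h replicate 1, 4 h replicate 2, 12 h replicate 1, 12 h replicate 2, 1 h replicate 1 or 1 h replicate 2 (adjusted p from 0.05 to 0.246). The respiratory member that fell was COX5B, the form of cytochrome oxidase subunit V made without oxygen, from 1412 and 929.6 to 221 and 351 (−2.04 ± 0.27, adjusted p = 0.000352).

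Changes of the mitochondrial ribosomal proteins were smaller. MNP1 rose from 168 and 167 to 574 and 491 (1.66 ± 0.18, adjusted p = 0.000129), MRPL39 by 1.48 ± 0.22 and MRPL50 by 1.46 ± 0.18. RSM22, which the list holds as a protein of the small subunit and which is related to methyltransferases, went the other way, from 1123 and 1164 to 344 and 442 (−1.55 ± 0.27, adjusted p = 0.00183). Its means at 0.5, 1 and 12 h were 1374, 1305 and 303. Peroxisomal β-oxidation, by which yeast breaks down fatty acids, gave 10 higher and 0 lower genes of 14 (median 1.90). CTA1, the peroxisomal catalase, read 31.9 and 16.6 at 0 h and 837 and 1261 at 4 h (5.48 ± 0.45, adjusted p = 2.52e-05), SPS19, a dienoyl-CoA reductase, rose by 3.63 ± 0.42, and PXA1, a subunit of the importer of long-chain acyl-CoA, by 3.40 ± 0.31. The medians of the β-oxidation genes at 0.5, 1 and 12 h were 3.17, 3.67 and 0.58, and POT1 had means at 1, 4 and 12 h of 3224, 639.9 and 91.8.

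Most genes of glycolysis fell. Of 20 genes of glycolysis and fermentation 16 were lower and 3 higher (80.0% lower, against 23.2% of all genes), with a median of −1.27. CDC19, the main pyruvate kinase, read 9095 and 8971 at 0 h and 1399 and 2427 at 4 h (−2.29 ± 0.27, adjusted p = 0.000202). ENO1 and ENO2, the enolases, fell from 5206 and 6173 to 934 and 1388 (−2.32 ± 0.23, adjusted p = 6.77e-05) and from 6027 and 5748 to 949.7 and 1356 (−2.38 ± 0.24, adjusted p = 9.53e-05). In each the times were well apart and 4 h replicate 1 read below replicate 2. The 3 genes that rose were GLK1, glucokinase, (2.76 ± 0.20, adjusted p = 1.15e-05), HXK1, a hexokinase made when glucose is scarce, (1.59 ± 0.45, adjusted p = 0.0187), and PDC6, a minor pyruvate decarboxylase, (1.24 ± 0.19, adjusted p = 0.000792). The call of HXK1 was lost without 0 h replicate 2 (adjusted p = 0.132) or 4 h replicate 2 (adjusted p = 0.122). Against the mean of 0.5, 1 and 12 h, 11 of the 20 were lower at 4 h, 3 without 4 h replicate 1. Of all genes 392 (7.19%) were lower in this comparison, and 49 without 4 h replicate 1. ENO1 had means at 0.5, 1, 4 and 12 h of 2347, 1904, 1161 and 5924 (−1.38 ± 0.18, adjusted p = 0.00251 against the other ethanol times), lowest at 4 h.

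Of 20 sugar transporters and sensors, 6 were higher and 6 lower (30.0% and 30.0%, against 19.4% and 23.2% of all genes). HXT5, a transporter of slow-growing cells, read 241 and 169.9 at 0 h and 2876 and 3622 at 4 h (4.00 ± 0.25, adjusted p = 5.95e-06), and HXT4 fell from 509.6 and 408 to 69.7 and 56.2 (−2.87 ± 0.20, adjusted p = 1.09e-05), alongside HXT1 and HXT3. With the dimmest 20% of genes left out, 3 were higher and 4 lower of the 9 still measured. Hexose transporter sequences are much alike, so a probe set may read more than its own gene. Among 26 regulators of carbon source use 10 rose and 4 fell (median 0.15). SIP4, an activator of gluconeogenic genes, read 140.2 and 94.6 at 0 h and 2522 and 2238 at 4 h (4.37 ± 0.31, adjusted p = 1.16e-05), and ADR1, the activator of ADH2 and of peroxisomal genes, 94.7 and 47.5 at 0 h and 819 and 1044 at 4 h (3.79 ± 0.35, adjusted p = 5.54e-05). The 4 that fell were the repressors MIG1 (−0.94 ± 0.14, adjusted p = 0.000704), MIG2 and MIG3 (−2.27 ± 0.14, adjusted p = 5.95e-06), and PIP2, an oleate-responsive activator, (−2.03 ± 0.16, adjusted p = 1.99e-05). MIG1 had means at 0.5, 1, 4 and 12 h of 374, 298, 184 and 241, lower at 4 h than the mean of the other times (−0.70 ± 0.11, adjusted p = 0.00552). That call was lost without 4 h replicate 1 (adjusted p = 0.0769).

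A list of 50 isozyme pairs could be read for 49. In 9 of them the members passed the threshold in opposite directions, in 11 in the same direction, in 19 only 1 member passed, and in 10 neither did. ADH1, the fermentative alcohol dehydrogenase, read 6010 and 5374 at 0 h and 2129 and 2674 at 4 h (−1.25 ± 0.16, adjusted p = 0.000298), against the rise of ADH2. COX5A, the aerobic partner of COX5B, rose from 769 and 941 to 3964 and 4073 (2.24 ± 0.17, adjusted p = 1.76e-05). PET9, the main mitochondrial ADP/ATP carrier, rose by 1.27 ± 0.15 while AAC3, used without oxygen, changed by −0.88 ± 0.23 from a dim 26.0 and 29.1. In the pentose phosphate pathway, which makes NADPH and ribose, TKL2, a transketolase, rose from 94.6 and 44.7 to 797 and 1373 (4.01 ± 0.41, adjusted p = 9.51e-05) and SOL4, a lactonase, from 116 and 96.5 to 414 and 847 (2.48 ± 0.32, adjusted p = 0.000293), while their partners TKL1 (−0.67 ± 0.18) and SOL3 (−1.22 ± 0.21) fell. Sugar phosphate enzymes split as well, with PFK26 (1.04 ± 0.23) against PFK27, HXK1 against HXK2 (−0.97 ± 0.21), and PGM2, the main phosphoglucomutase, from 242 and 249 to 706 and 1429 (2.03 ± 0.36, adjusted p = 0.00202), against PGM1 (−0.84 ± 0.15). The last was the Hsp70 pair, SSA1 (2.21 ± 0.20) and SSA4 (−0.62 ± 0.19). The call of TKL1 was lost without 0 h replicate 2 (adjusted p = 0.0892) or 4 h replicate 2 (adjusted p = 0.138), and that of AAC3 without 0 h replicate 2, 4 h replicate 1 or 4 h replicate 2 (adjusted p from 0.0515 to 0.0764) or with 50 added to each intensity (0.0792). SSA4 did not pass without 0 h replicate 1, 4 h replicate 1 or 4 h replicate 2 (adjusted p from 0.0998 to 0.173), nor PFK26 without 4 h replicate 2 (adjusted p = 0.0537), nor HXK1, as given above.

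**Figure D3:**
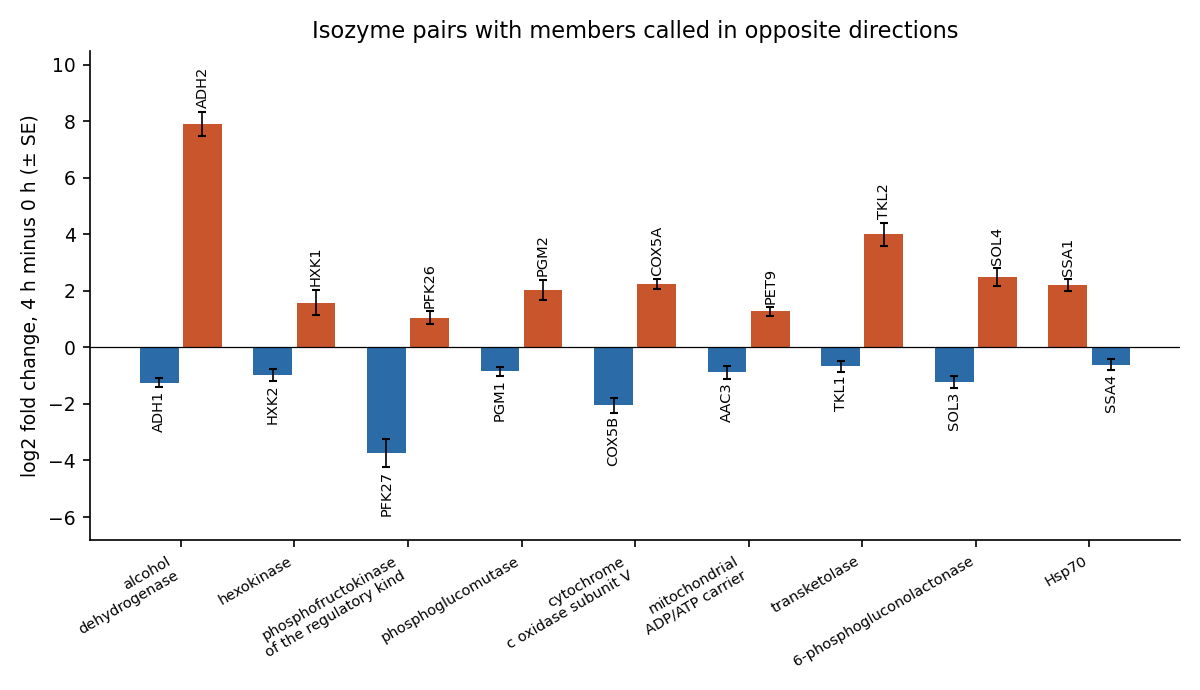
Log2 fold change at 4 h against 0 h (vertical, bars from 0, error bars the SE of the limma fit, 2 arrays at each time) for the 9 isozyme pairs whose members passed the threshold in opposite directions. In 8 pairs the member drawn on the left fell and that on the right rose, with ADH1 at −1.25 and ADH2 at 7.91 the widest apart.

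The pentose phosphate genes as a whole gave 4 higher and 3 lower of 11 (36.4% and 27.3%, against 19.4% and 23.2% of all genes). Beside TKL2 and SOL4, NQM1, a transaldolase, rose by 2.70 ± 0.26 and RKI1, ribose phosphate isomerase, from 496 and 482 to 1854 and 1649 (1.84 ± 0.29, adjusted p = 0.001). ZWF1, the first enzyme of the pathway, fell from 2018 and 1782 to 935 and 993 (−0.98 ± 0.20, adjusted p = 0.00443).

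Most genes of reserve carbohydrates rose, by less than earlier in ethanol at the median. Trehalose and glycogen metabolism gave 12 higher and 2 lower genes of 20 (median 1.13, with 2.03, 2.08 and 0.88 at the other times in order). They are 60.0% and 10.0% of the list, against 19.4% and 23.2% of all genes. In the contrast with the mean of the other ethanol times, 7.19% of all genes were lower. GAC1, which targets a phosphatase to glycogen synthase, read 22.8 and 26.1 at 0 h and 126 and 273 at 4 h (2.92 ± 0.31, adjusted p = 0.000117), GLC3, the glycogen branching enzyme, 288 and 182 at 0 h and 865 and 1734 at 4 h (2.42 ± 0.34, adjusted p = 0.000552), and ATH1, acid trehalase, 137 and 163 at 0 h and 629.9 and 897 at 4 h (2.33 ± 0.23, adjusted p = 6.94e-05). In these 3 genes 4 h replicate 2 was the higher. GSY1, a glycogen synthase, rose by 2.23 ± 0.39, and GLG1, which primes glycogen, fell from 376 and 258 to 174 and 207 (−0.71 ± 0.23, adjusted p = 0.0306), a call lost without 0 h replicate 1, 4 h replicate 1 or 4 h replicate 2 (adjusted p from 0.0604 to 0.195). Against the mean of the other ethanol times 6 of the list were lower and 0 higher at 4 h, with 0 lower without 4 h replicate 1, 11 without 4 h replicate 2 and 3 without 12 h replicate 1 or 1 h replicate 2. With the replicate number as a block, 13 were lower.

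General stress genes gave 19 higher and 2 lower of 36 (median 0.81), with 12 higher without 4 h replicate 2 and 12 without 0 h replicate 2. With all arrays 52.8% rose and 5.56% fell, against 19.4% and 23.2% of all genes. SIP18, a desiccation protein, read 137 and 75.1 at 0 h and 3150 and 4292 at 4 h (5.18 ± 0.30, adjusted p = 4e-06), OM45, of the mitochondrial outer membrane, 144 and 91.6 at 0 h and 2779 and 3666 at 4 h (4.80 ± 0.26, adjusted p = 2.48e-06), and MSC1 459 and 325 at 0 h and 3878 and 4957 at 4 h (3.50 ± 0.20, adjusted p = 3.58e-06). The times overlapped in none of the 3, against 25.1% of all genes, and their means at 1 h had been 6143, 5057 and 7591. MSN4, a transcription factor of this response, fell from 222 and 247 to 85.7 and 109 (−1.28 ± 0.22, adjusted p = 0.00177). Of the 17 stationary phase and desiccation proteins 10 rose (58.8%) and 0 fell, among them SPG4 (4.77 ± 0.53), SPG1 (4.93 ± 0.54) and FMP45 (3.58 ± 0.45). The eisosome and the Sur7 family, which mark furrows of the plasma membrane, had 9 higher and 1 lower of 16 (56.25% and 6.25%). YNL194C, of the Sur7 family, read 35.9 and 33.8 at 0 h and 845 and 1155 at 4 h (4.83 ± 0.22, adjusted p = 9.7e-07), EIS1, an eisosome protein, rose by 2.44 ± 0.23, and SEG2 by 2.24 ± 0.30. Its relative SEG1 changed by −0.61 ± 0.19, a call lost without 0 h replicate 1, 4 h replicate 1 or 4 h replicate 2 (adjusted p from 0.0799 to 0.148).

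Of the chaperone genes 15 of 27 rose and 3 fell (median 0.73), with 9 higher without 4 h replicate 2 and 10 without 0 h replicate 1. The shares with all arrays are 55.6% and 11.1%, against 19.4% and 23.2% of all genes. SSA1, a cytosolic Hsp70, read 1320 and 1496 at 0 h and 6114 and 6907 at 4 h (2.21 ± 0.20, adjusted p = 5.23e-05), CPR6, a cochaperone of Hsp90, rose by 2.04 ± 0.17 and HSP82, the inducible Hsp90, by 1.63 ± 0.20. HSP31, a chaperone that also breaks down methylglyoxal, fell from 2543 and 2183 to 622 and 684 (−1.85 ± 0.21, adjusted p = 0.000146), as did SSA4 and SSB1, a ribosome-bound Hsp70 (−0.55 ± 0.18, from a probe set shared with other sequences). Neither SSA4 nor SSB1 held its call in every setting, SSA4 losing it without 0 h replicate 1, 4 h replicate 1 or 4 h replicate 2 (adjusted p from 0.0998 to 0.173) and SSB1 without 0 h replicate 1, 0 h replicate 2, 4 h replicate 1 or 4 h replicate 2 (adjusted p from 0.062 to 0.163). HSP30, a plasma membrane protein that restrains the proton pump, rose from 429 and 616 to 1004 and 1150 (1.06 ± 0.22, adjusted p = 0.0044). In oxidative defence 11 rose and 2 fell of 26 (42.3% and 7.69%), with the mitochondrial peroxiredoxin PRX1 at 2.36 ± 0.18, GRX2, a glutaredoxin, at 2.16 ± 0.16 and SOD2, mitochondrial superoxide dismutase, at 1.63 ± 0.14. The 2 that fell were TRR1, cytosolic thioredoxin reductase (−0.70 ± 0.18), and GSH2, of glutathione synthesis (−0.58 ± 0.16). TRR1 did not pass without 0 h replicate 2 (adjusted p = 0.0621) or 4 h replicate 2 (adjusted p = 0.104), and GSH2 did not without 0 h replicate 2, 4 h replicate 1 or 4 h replicate 2 (adjusted p from 0.073 to 0.109).

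Protein turnover genes rose in part. Autophagy and vacuolar proteolysis gave 15 higher and 4 lower of 31 (median 0.67, 9 higher without 4 h replicate 2). In shares, 48.4% rose and 12.9% fell with all arrays, against 19.4% and 23.2% of all genes. The members with the largest rises were the vacuolar protease inhibitors PAI3 (2.74 ± 0.24) and PBI2 (2.53 ± 0.31), ATG34, a receptor for a vacuolar enzyme (1.80 ± 0.22), and APE3, a vacuolar aminopeptidase (1.46 ± 0.16). ATG13, a regulator of the Atg1 kinase, fell from 563 and 617 to 321 and 287 (−0.96 ± 0.17, adjusted p = 0.00223). The other members that fell were ATG2 (−0.53 ± 0.17), ATG18 (−0.49 ± 0.17) and ATG31 (−0.57 ± 0.18). ATG2 lost the call without 0 h replicate 1, 4 h replicate 1 or 4 h replicate 2 (adjusted p from 0.081 to 0.17) or with only the arrays of the times compared in the fit (0.0564), ATG18 without 0 h replicate 1, 4 h replicate 1, 4 h replicate 2, 1 h replicate 1, 1 h replicate 2, 0.5 h replicate 1 or 0.5 h replicate 2 (adjusted p from 0.0503 to 0.205), with an intensity trend of the variance (0.0514) or with only the arrays of the times compared in the fit (0.0707), and ATG31 without 0 h replicate 2, 4 h replicate 1 or 4 h replicate 2 (adjusted p from 0.0912 to 0.175). Of 34 proteasome genes 11 rose and 1 fell (32.35% and 2.94%), all by under 2-fold, with RPN6 (0.93 ± 0.23), SCL1 (0.74 ± 0.15), RPN11 (0.70 ± 0.18) and RPN4, the transcription factor of the proteasome genes (0.74 ± 0.21), in the lead and PRE3 (−0.45 ± 0.15) the exception. The number higher was 1 without 4 h replicate 2 and 3 without 0 h replicate 2. RPN6 did not pass without 0 h replicate 2 (adjusted p = 0.0584) or 4 h replicate 2 (adjusted p = 0.0862), RPN11 without 0 h replicate 2 (adjusted p = 0.0978) or 4 h replicate 2 (adjusted p = 0.104), RPN4 without 0 h replicate 1, 4 h replicate 1 or 4 h replicate 2 (adjusted p from 0.0637 to 0.112), or PRE3 without 0 h replicate 1, 0 h replicate 2, 4 h replicate 1, 4 h replicate 2, 1 h replicate 1, 1 h replicate 2, 0.5 h replicate 1 or 0.5 h replicate 2 (adjusted p from 0.0547 to 0.201) or with only the arrays of the times compared in the fit (0.0791).

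**Figure D4:**
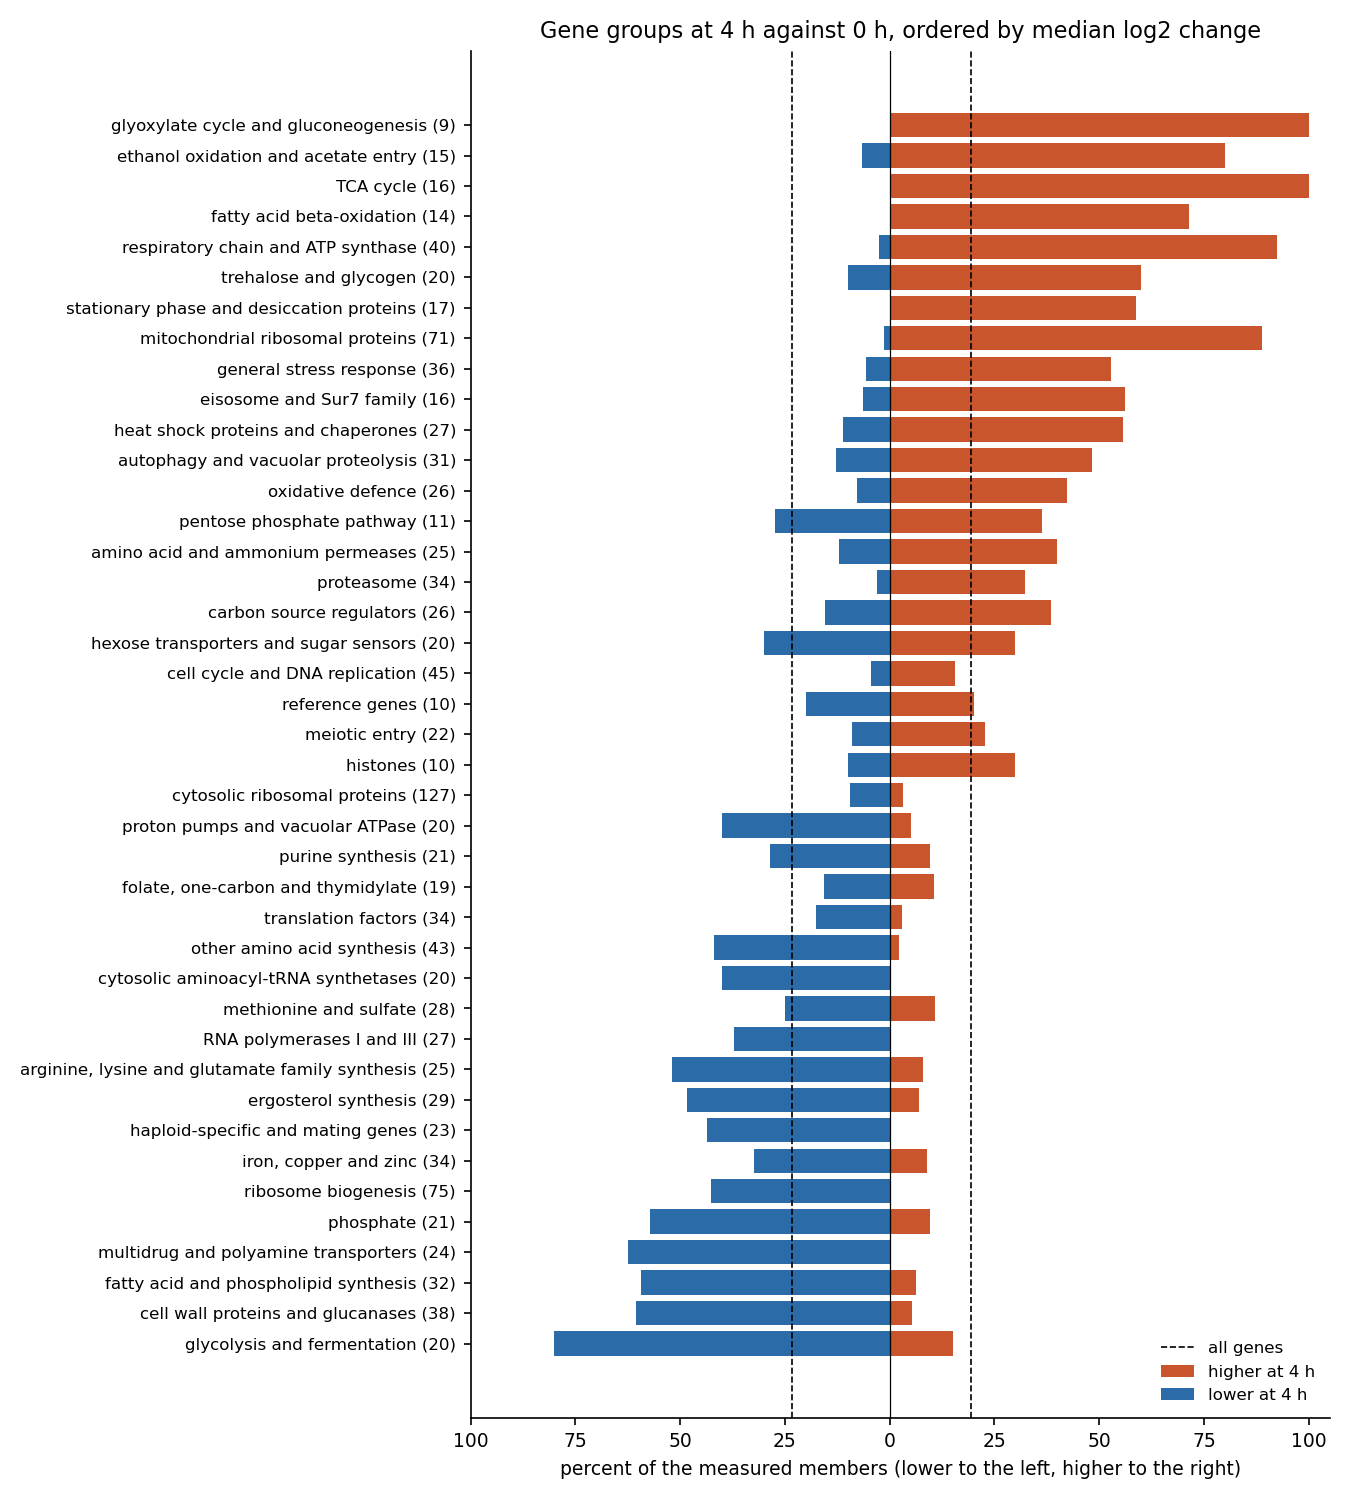
Percent of the measured members of each gene group that were called higher (orange, to the right) or lower (blue, to the left) at 4 h than at 0 h, ordered by the median log2 change, with the number of members in brackets; dashed lines mark the 19.4% and 23.2% of all genes. The glyoxylate and TCA cycle groups are higher in every member, and glycolysis is lower in 16 of 20.

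Ribosomal protein genes were near their 0 h level at 4 h and ribosome biogenesis genes were lower, and both had been far lower at 0.5 and 1 h. Of 127 cytosolic ribosomal protein genes 4 were higher and 12 lower than at 0 h (3.15% and 9.45%, against 19.4% and 23.2% of all genes), with a median of −0.20, where the medians at 0.5, 1 and 12 h were −1.30, −0.95 and −0.10. Ribosome biogenesis gave 0 higher and 32 lower of 75 (42.7% lower, median −0.61, and −2.38, −2.20 and −0.36 at the other times). Compared with the mean of 0.5, 1 and 12 h, a contrast that called 10.2% of all genes higher (556) and 7.19% lower (392), 98 ribosomal protein genes and 67 biogenesis genes were higher and 0 and 0 lower. Without 4 h replicate 1 these counts were 5 and 5, with medians of 0.57 and 0.82 in place of 0.59 and 1.01, and the contrast as a whole called 51 higher and 49 lower. Without 4 h replicate 2 they were 29 and 54, and the whole contrast 328 higher and 247 lower. The falls against 0 h also moved, to 9 biogenesis genes without 4 h replicate 2 and 10 without 0 h replicate 2, and for ribosomal proteins to between 1 and 4 without any 1 of the 4 arrays of 0 and 4 h, or 7 without a 1 h array.

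NSR1, a nucleolar protein of ribosomal RNA processing, read 1767 and 2214 at 0 h and 736 and 663 at 4 h (−1.50 ± 0.30, adjusted p = 0.00372), between means of 85.7 at 1 h and 1348 at 12 h (1.75 ± 0.25, adjusted p = 0.00306 against the other ethanol times). NOG2, a GTPase of the large subunit, read 1606 and 2077 at 0 h and 877 and 789 at 4 h (−1.14 ± 0.18, adjusted p = 0.00104), with means of 210.4 at 0.5 h and 792 at 12 h (1.28 ± 0.15, adjusted p = 0.00172). Each was below 0 h at 4 h, and above its level at 0.5 and 1 h. UTP9, of the small subunit processome, fell by 1.35 ± 0.21 on the log2 scale. DBP2, an RNA helicase, went from 486 and 579 to 229.6 and 276 (−1.07 ± 0.35, adjusted p = 0.0332), with means of 35.8 at 0.5 h and 1187 at 12 h, and lost its call against 0 h without 0 h replicate 1, 0 h replicate 2, 4 h replicate 1 or 4 h replicate 2 (adjusted p from 0.0725 to 0.149) or after quantile normalization (0.0539). RNA polymerases I and III, which transcribe the genes of ribosomal and transfer RNA, gave 0 higher and 10 lower of 27 against 0 h (4 lower without 0 h replicate 2 and 5 without 4 h replicate 2) and 10 higher against the other times (2 without 4 h replicate 1). RPA49, a subunit of polymerase I, went from a mean of 637 at the shift to means at 0.5, 1, 4 and 12 h of 55.6, 73.4, 329 and 457 (1.42 ± 0.19, adjusted p = 0.00266 at 4 h against the other ethanol times).

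The 4 ribosomal protein genes that rose were RPS9A, from 219 and 374 to 1265 and 1194 (2.10 ± 0.37, adjusted p = 0.00199), RPS22B (1.18 ± 0.28, adjusted p = 0.00853), RPL9B (0.65 ± 0.19, adjusted p = 0.0227) and RPL41A, from a shared probe set (0.94 ± 0.24, adjusted p = 0.0125). RPL22B showed the largest fall of the list, from 2418 and 2573 to 834 and 1039 (−1.42 ± 0.19, adjusted p = 0.000345). Of 50 duplicated pairs with both copies measured, 2 passed in opposite directions. They are named after their values were seen, RPL9A (−0.69) with RPL9B, and RPS22A (−0.64) with RPS22B. In 8 pairs 1 copy passed and in 39 neither did. The copies are nearly identical in sequence, so the probe sets may not tell them apart fully. RPL9B lost its call without 0 h replicate 1, 4 h replicate 1 or 4 h replicate 2 (adjusted p from 0.0739 to 0.12), RPS22B without 0 h replicate 1 (adjusted p = 0.0584) or 4 h replicate 2 (adjusted p = 0.0658), and RPL41A without 0 h replicate 2 (adjusted p = 0.0912) or 4 h replicate 2 (adjusted p = 0.0597).

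Translation factors gave 1 higher and 6 lower of 34 (1 lower without 4 h replicate 2 and 2 without 0 h replicate 2). With all arrays 2.94% were higher and 17.65% lower, both below the 19.4% and 23.2% of all genes. GCN3, a subunit of the exchange factor eIF2B, fell from 768 and 694 to 369 and 352 (−1.02 ± 0.20, adjusted p = 0.00316) and YEF3, an elongation factor of fungi, from 5581 and 6343 to 4084 and 3309 (−0.69 ± 0.19, adjusted p = 0.0173), while HYP2, eIF5A, rose from 2553 and 2415 to 3485 and 3642 (0.52 ± 0.14, adjusted p = 0.0141). YEF3 did not pass without 0 h replicate 2 (adjusted p = 0.0971) or 4 h replicate 2 (adjusted p = 0.131), nor HYP2 without 0 h replicate 2, 4 h replicate 1 or 4 h replicate 2 (adjusted p from 0.0529 to 0.0943). Of 20 cytosolic aminoacyl-tRNA synthetases, which charge tRNAs with amino acids, 8 fell and 0 rose (2 lower without 4 h replicate 2 and 4 without 0 h replicate 2). The 8 are 40.0% of the list, against 23.2% of all genes. CDC60, for leucine, read 2090 and 2487 at 0 h and 1209 and 1128 at 4 h (−0.96 ± 0.17, adjusted p = 0.00205) and HTS1, for histidine, 2365 and 2482 at 0 h and 1403 and 1163 at 4 h (−0.92 ± 0.16, adjusted p = 0.00199). In the contrast with the mean of the other ethanol times, 10.2% of all genes were higher. Against the other times in ethanol 11 of the 20 were higher, and 0 without 4 h replicate 1.

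**Figure D5:**
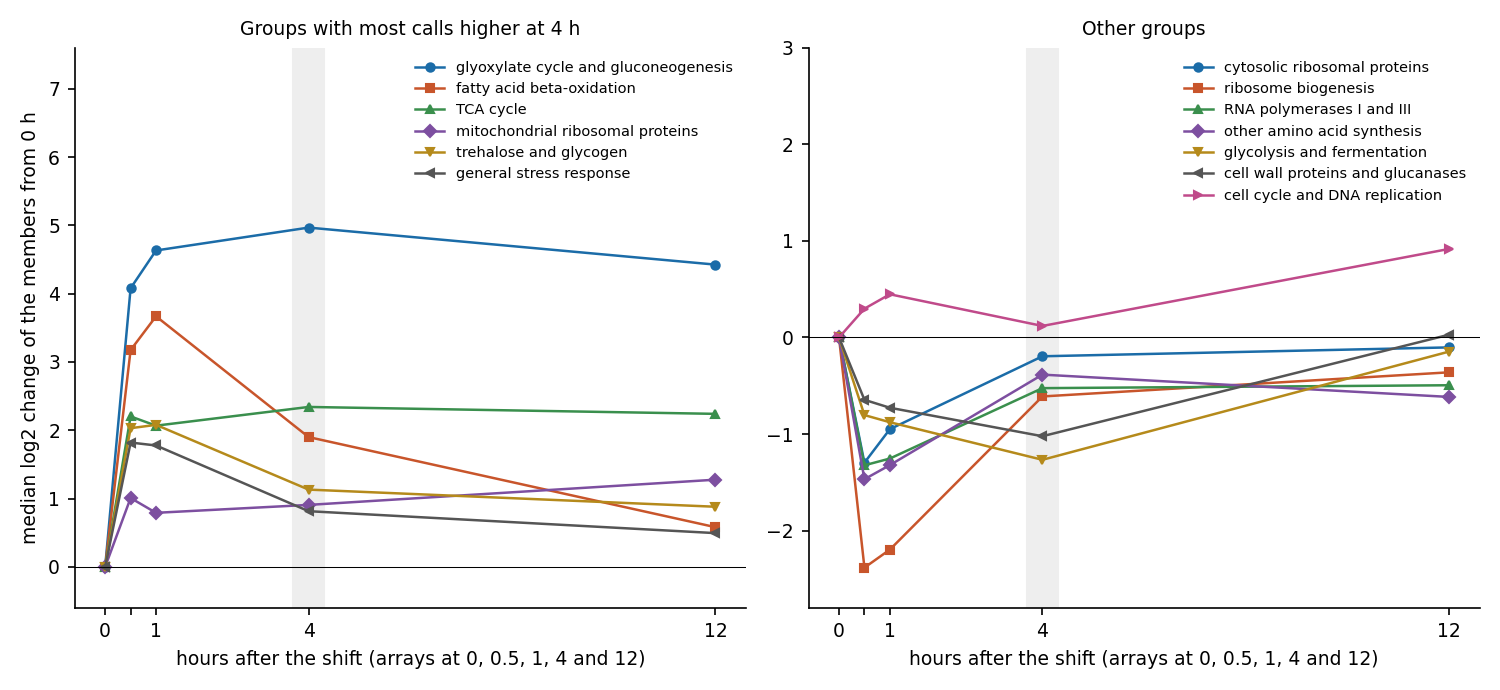
Median log2 change from 0 h of the members of 13 gene groups (vertical) against hours after the shift (horizontal), 2 arrays at each time, all against the same 0 h arrays; the grey band marks 4 h. Ribosome biogenesis lies at −2.38 at 0.5 h and −0.61 at 4 h, and glycolysis is lowest at 4 h (−1.27).

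Genes of amino acid synthesis fell against 0 h in part. Of all genes 23.2% were lower than at 0 h, and 10.2% were higher than the mean of the other ethanol times. Arginine, lysine and glutamate family genes gave 2 higher and 13 lower of 25 (median −0.54, and −1.53, −1.39 and −0.44 at 0.5, 1 and 12 h), and the other amino acid genes 1 higher and 18 lower of 43 (median −0.39, and −1.47, −1.32 and −0.62). Against the other times in ethanol 16 and 26 of them were higher and 0 and 0 lower, but only 1 of each list passed without 4 h replicate 1. Without 4 h replicate 2, 7 and 10 were lower than at 0 h, and without 0 h replicate 2, 8 and 10. LYS9, of lysine synthesis, fell from 2273 and 2121 to 751 and 585 (−1.73 ± 0.20, adjusted p = 0.000183), BAT1, the mitochondrial branched-chain aminotransferase, from 7197 and 7341 to 1987 and 2204 (−1.80 ± 0.20, adjusted p = 0.000129), and ARO9, an aromatic aminotransferase, from 2471 and 1997 to 396 and 546 (−2.25 ± 0.39, adjusted p = 0.00176). Their times did not overlap (those of 25.1% of all genes did). GDH3, an NADP-dependent glutamate dehydrogenase of cells on ethanol, rose from 157 and 67.7 to 3413 and 4726 (5.29 ± 0.35, adjusted p = 8.54e-06), with means at 0.5, 1 and 12 h of 1169, 1578 and 3684. GDH2, the NAD-dependent enzyme, rose by 1.99 ± 0.17, and SER3, of serine synthesis, from 622 and 494 to 1889 and 1569 (1.64 ± 0.23, adjusted p = 0.000602).

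The permeases MMP1 and MUP1 rose, and some genes of sulfur and nitrogen use differed widely between the 4 h arrays. In methionine and sulfate metabolism 3 rose and 7 fell of 28 (4 lower without 0 h replicate 2). MMP1, the S-methylmethionine permease, read 116 and 105 at 0 h and 1570 and 809 at 4 h (3.36 ± 0.33, adjusted p = 7.68e-05), MUP1, the methionine permease, 236 and 189 at 0 h and 2050 and 1142 at 4 h (2.86 ± 0.33, adjusted p = 0.00018), and MHT1, which uses S-methylmethionine, 54.6 and 58.2 at 0 h and 489 and 187 at 4 h (2.42 ± 0.45, adjusted p = 0.00244). Replicate 1 of 4 h was the higher in all 3, and both 4 h arrays were above 0 h. Among genes with a mean log2 intensity of at least 8, MET3, ATP sulfurylase, had the widest gap between the 4 h arrays, 497 and 962 at 0 h and 908 and 200.5 at 4 h, with the times overlapping (−0.70 ± 0.61, adjusted p = 0.387). It passed as lower without 4 h replicate 1 (adjusted p = 0.015). SEO1, of a family of permeases, followed at 37.9 and 79.5 at 0 h and 1191 and 356 at 4 h (3.57 ± 0.53, adjusted p = 0.000704), then YKL068W-A at 275 and 825 at 0 h and 830.3 and 249 at 4 h (−0.07 ± 0.72). PUT1, proline oxidase, went the other way between arrays, 569 and 872 at 0 h and 751 and 2477 at 4 h (0.95 ± 0.53, adjusted p = 0.176), and passed as higher without 4 h replicate 1 (adjusted p = 0.0137). Of 25 permeases for amino acids and ammonium 10 rose and 3 fell (40.0% and 12.0%, median 0.34). The peptide transporter PTR2, at 3.45 ± 0.37, came next after PUT4 and TAT1. The falls, HIP1 (−0.60 ± 0.17), SAM3 (−0.71 ± 0.21) and UGA4 (−0.65 ± 0.23), did not hold in every setting. HIP1 lost the call without 0 h replicate 2 (adjusted p = 0.137) or 4 h replicate 2 (adjusted p = 0.127) or with only the arrays of the times compared in the fit (0.0519), SAM3 without 0 h replicate 1, 0 h replicate 2, 4 h replicate 1 or 4 h replicate 2 (adjusted p from 0.0614 to 0.121), and UGA4 without 0 h replicate 1, 0 h replicate 2, 4 h replicate 1, 1 h replicate 1, 1 h replicate 2, 0.5 h replicate 1 or 0.5 h replicate 2 (adjusted p from 0.059 to 0.296), with an intensity trend of the variance (0.061), with 50 added to each intensity (0.0636) or with only the arrays of the times compared in the fit (0.0702).

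Purine synthesis gave 2 higher and 6 lower of 21 (1 lower without 4 h replicate 2, 2 without 0 h replicate 2 and 3 without 0 h replicate 1). IMD4, for GMP synthesis, fell from 799.6 and 1066 to 399.7 and 257 (−1.53 ± 0.31, adjusted p = 0.00372), and HPT1, of purine salvage, rose from 452 and 748 to 1067 and 1082 (0.89 ± 0.25, adjusted p = 0.0184), a call lost without 0 h replicate 1, 4 h replicate 1 or 4 h replicate 2 (adjusted p from 0.059 to 0.127). With all arrays 9.524% of the purine list rose and 28.57% fell, against 19.4% and 23.2% of all genes. Folate and thymidylate genes, the pathway that methotrexate blocks at dihydrofolate reductase, gave 2 higher and 3 lower of 19 (median −0.29). These are 10.53% and 15.79% of their list, both below the shares of all genes. MET13, methylenetetrahydrofolate reductase, read 2104 and 2650 at 0 h and 794 and 701 at 4 h (−1.66 ± 0.17, adjusted p = 9.15e-05), and FOL1, of folate synthesis, 674 and 769.5 at 0 h and 362 and 261 at 4 h (−1.23 ± 0.19, adjusted p = 0.000944). CDC21, thymidylate synthase, read 36.2 and 39.2 at 0 h and 78.8 and 86.6 at 4 h (1.13 ± 0.15, adjusted p = 0.000342) and had means at 0.5, 1 and 12 h of 140.5, 149 and 329, so that 4 h was the lowest of the times in ethanol (−1.20 ± 0.12, adjusted p = 0.00128).

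Genes of lipid and sterol synthesis were mostly lower where they passed. Fatty acid and phospholipid synthesis gave 2 higher and 19 lower of 32 (median −0.96) and ergosterol synthesis 2 higher and 14 lower of 29 (median −0.57, 6 lower without 4 h replicate 2 and 8 without 0 h replicate 1). The falls with all arrays are 59.4% and 48.3% of these lists, against 23.2% of all genes. FAS2, a subunit of fatty acid synthase, read 2299 and 2790 at 0 h and 612 and 528 at 4 h (−2.15 ± 0.17, adjusted p = 1.77e-05), PSD1, which makes phosphatidylethanolamine in mitochondria, 502 and 488 at 0 h and 124 and 95.2 at 4 h (−2.19 ± 0.20, adjusted p = 4.69e-05), and ERG8, a kinase of the mevalonate pathway, 1984 and 1763 at 0 h and 476 and 484 at 4 h (−1.96 ± 0.15, adjusted p = 2.01e-05). In these 3 genes the 0 h arrays lay far above those of 4 h. ITR1, the inositol transporter (−1.74 ± 0.18), CHO2, of phosphatidylcholine synthesis (−1.68 ± 0.22), ERG5 (−1.50 ± 0.23) and ERG7 (−1.39 ± 0.25) fell with them. OLE1, the fatty acid desaturase, rose from 777 and 907 to 2287 and 2788 (1.59 ± 0.18, adjusted p = 0.00016), as did GPT2, a glycerol phosphate acyltransferase (1.32 ± 0.18). The means of OLE1 at 0.5, 1 and 12 h were 967, 967 and 4542.

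Of 24 multidrug and polyamine transporters and their regulators 15 fell and 0 rose (62.5% lower, median −0.89). Of all genes 19.4% were higher and 23.2% lower. PDR12, an exporter of weak acids, read 2596 and 3274 at 0 h and 385 and 439 at 4 h (−2.83 ± 0.22, adjusted p = 1.77e-05), and PDR5, an exporter of drugs, 823 and 1229 at 0 h and 178 and 194 at 4 h (−2.44 ± 0.27, adjusted p = 0.000134). Phosphate genes gave 2 higher and 12 lower of 21 (7 lower without 4 h replicate 2), with PHO5, the secreted phosphatase, at −2.39 ± 0.23 and PHO89, a sodium phosphate transporter, rising from 1905 and 583 to 6671 and 5478 (2.52 ± 0.43, adjusted p = 0.00168), its 0 h arrays far apart. The phosphate falls with all arrays are 57.1% of their list. Iron, copper and zinc genes gave 3 higher and 11 lower of 34 (8.82% and 32.35%). FET4, a low-affinity iron transporter, fell from 440.3 and 299 to 39.1 and 55.1 (−2.97 ± 0.22, adjusted p = 1.66e-05), and the zinc transporters ZRT2 from 1620 and 1671 to 222 and 235 (−2.85 ± 0.15, adjusted p = 1.99e-06) and ZRT1 from 4069 and 3920 to 685 and 819 (−2.41 ± 0.26, adjusted p = 0.000117). The iron-sulfur scaffold pair parted, ISU2 at −2.23 ± 0.25 and ISU1 at 1.12 ± 0.15. Among proton pump and vacuolar ATPase genes 40.0% were lower and 5.0% higher with all arrays. The proton pumps and the vacuolar ATPase gave 1 higher and 8 lower of 20 (5 lower without any 1 of the 0 h, 0.5 h or 4 h arrays), with PMA1, the plasma membrane proton pump, falling from 3430 and 4597 to 1547 and 1049 (−1.64 ± 0.27, adjusted p = 0.00139), and HSP30, given above, the member that rose.

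Cell wall proteins and glucanases gave 2 higher and 23 lower of 38 (median −1.02), with 11 lower without 0 h replicate 1 and 13 without 4 h replicate 1. EXG1, an exoglucanase, read 2366 and 2432 at 0 h and 336 and 432 at 4 h (−2.65 ± 0.19, adjusted p = 1.4e-05), PIR3, a wall protein, 1213 and 762 at 0 h and 131 and 250 at 4 h (−2.41 ± 0.32, adjusted p = 0.000399), and FKS1, the glucan synthase, 2003 and 2666 at 0 h and 510.3 and 664 at 4 h (−1.99 ± 0.25, adjusted p = 0.0003). EXG1 and FKS1 were back at 2166 and 1725 at 12 h. With all arrays 60.5% of the list was lower than at 0 h, against 23.2% of all genes. In the contrast with the mean of the other ethanol times, 7.19% of all genes were lower. Against the other times in ethanol 10 of the 38 were lower at 4 h, 2 without 4 h replicate 1. TIP1, a mannoprotein, rose from 508 and 259.6 to 2258 and 2486 (2.71 ± 0.91, adjusted p = 0.0383). Its call was lost without 0 h replicate 1, 0 h replicate 2, 4 h replicate 1, 4 h replicate 2, 12 h replicate 1 or 12 h replicate 2 (adjusted p from 0.0557 to 0.185) or with 50 added to each intensity (0.0513).

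Few genes of the cell cycle passed the threshold. Of 45 cell cycle and DNA replication genes 7 rose and 2 fell (15.6% and 4.44%, below the 19.4% and 23.2% of all genes), with a median of 0.12 (2 higher without 4 h replicate 2 and 4 without 0 h replicate 2). The medians at 0.5, 1 and 12 h were 0.30, 0.45 and 0.92. At 4 h 18 of the 45 were lower than the mean of those times, as were 7.19% of all genes (392). Without 4 h replicate 1 both counts were smaller. POL30, the replication clamp, read 131 and 120.3 at 0 h and 187 and 277 at 4 h (0.85 ± 0.20, adjusted p = 0.00836) with means at 1 and 12 h of 602 and 1036, and did not pass without 0 h replicate 2 (adjusted p = 0.052) or 4 h replicate 2 (adjusted p = 0.0775). RFA1, of the strand binding complex, read 151 and 161 at 0 h and 342 and 433 at 4 h (1.31 ± 0.21, adjusted p = 0.00131). Histone genes gave 3 higher and 1 lower of 10 (30.0% and 10.0%), with the linker histone HHO1 at 1.97 ± 0.24, the variants HTZ1 at 1.43 ± 0.14 and CSE4 at 0.90 ± 0.17, and the core histone HTB2 at −1.61 ± 0.19.

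Of 22 genes of meiotic entry, which diploid cells can start on acetate without nitrogen, 5 rose and 2 fell. These are 22.7% and 9.09% of the list, against 19.4% and 23.2% of all genes. RIM4, an RNA-binding regulator of meiosis, read 64.0 and 66.5 at 0 h and 212 and 434 at 4 h (2.21 ± 0.35, adjusted p = 0.00102) after 1140 at 1 h. IME1, the master activator, read 93.8 and 104 at 0 h and 177 and 689 at 4 h (1.82 ± 0.60, adjusted p = 0.0358), so that its rise lay mainly in replicate 2 of 4 h and it lost the call without 0 h replicate 1, 0 h replicate 2 or 4 h replicate 2 (adjusted p from 0.107 to 0.251) or with 50 added to each intensity (0.0532). IME2, the kinase that acts after it, fell from 111 and 116 to 44.7 and 43.1 (−1.37 ± 0.20, adjusted p = 0.000662). Without 4 h replicate 2, 2 of the 22 were higher, and without 0 h replicate 2 or 0 h replicate 1, 2 and 3.

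Single genes also differed at 4 h from the mean of the other times in ethanol. A gene low at 0.5 and 1 h can pass as higher without being brightest at 4 h, and NSR1 was brighter at 12 h, as given above. The 8 highest in that contrast were CDA2 (2.96 ± 0.43, adjusted p = 0.00352), BMT6 (1.97 ± 0.24, adjusted p = 0.00219), the ubiquitin-conjugating enzyme UBC11 (1.95 ± 0.27, adjusted p = 0.00306), the multidrug transporter AQR1 (1.92 ± 0.28, adjusted p = 0.00352), MEP2 (1.89 ± 0.22, adjusted p = 0.00172), JJJ3 (1.75 ± 0.14, adjusted p = 0.00128), NSR1 and VHT1 (1.66 ± 0.28, adjusted p = 0.006). CDA2, a chitin deacetylase known from spore wall formation, read 39.1 and 16.2 at 0 h and 839 and 662 at 4 h, with means at 0.5, 1 and 12 h of 35.2, 100.3 and 295, so that it was brightest at 4 h. MEP2, the high-affinity ammonium permease, had a mean of 2578 at 0 h, and means at 0.5, 1 and 12 h of 386, 697 and 2565. It read 2391 and 4439 at 4 h, which did not pass against 0 h (0.34 ± 0.27, adjusted p = 0.338), or did only without 4 h replicate 1 (adjusted p = 0.03). VHT1, the biotin transporter, and BMT6, a methyltransferase of ribosomal RNA, were likewise lower at 0.5 and 1 h, with means of 515 and 27.1 at 1 h. The call of CDA2 was lost without 4 h replicate 1 (adjusted p = 0.0502), and that of VHT1 without 4 h replicate 1 (adjusted p = 0.0888).

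The 8 lowest were RNR1 (−2.25 ± 0.25, adjusted p = 0.00162), TIS11 (−2.24 ± 0.55, adjusted p = 0.0227), CLB1 (−2.18 ± 0.23, adjusted p = 0.00155), DMC1 (−2.04 ± 0.39, adjusted p = 0.00872), PLM2 (−2.01 ± 0.43, adjusted p = 0.0134), HRP1 (−2.00 ± 0.24, adjusted p = 0.00206), SWI5 (−1.99 ± 0.22, adjusted p = 0.00162) and GIC1 (−1.92 ± 0.23, adjusted p = 0.00211). RNR1, CLB1, PLM2, SWI5 and GIC1, genes whose transcripts are known to vary with the cell cycle, had their highest mean at 12 h. RNR1, the large subunit of ribonucleotide reductase, read 87.9 and 169 at 0 h and 89.6 and 122 at 4 h, with means of 262 at 1 h and 1711 at 12 h. CLB1, a mitotic cyclin, read 38.6 and 21.4 at 0 h and 24.0 and 27.5 at 4 h, with means of 69.3 and 363. TIS11, which destabilises mRNAs when iron is short, DMC1, a meiotic recombinase, and HRP1, an RNA-binding protein, were instead higher early, with means at 1 h of 386, 234 and 1370 against 51.0, 23.3 and 244 at 4 h. The call of TIS11 was lost without 4 h replicate 1 (adjusted p = 0.155) or 4 h replicate 2 (adjusted p = 0.0956), that of DMC1 without 4 h replicate 1 (adjusted p = 0.102), and that of PLM2 without 4 h replicate 1 (adjusted p = 0.175).

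Of 10 genes often used as references for mRNA levels, 2 rose and 2 fell (20.0% and 20.0%, against 19.4% and 23.2% of all genes). ACT1, actin, read 5667 and 6013 at 0 h and 5478 and 5629 at 4 h (−0.07 ± 0.17, adjusted p = 0.755), and SPT15, the TATA-binding protein, 988 and 1111 at 0 h and 977 and 1032 at 4 h (−0.06 ± 0.14, adjusted p = 0.758). Both changed by less than their standard error. ALG9 (0.26 ± 0.18), TAF10 (0.44 ± 0.17), TFC1 (−0.35 ± 0.17) and TUB2 (0.46 ± 0.20) did not pass either, though TAF10 did after subtraction of array medians (0.044), with 50 added to each intensity (0.0438) or after quantile normalization (0.0473), and TAF10 and TUB2 did with the replicate number as a block. TUB1, α-tubulin, rose from 432 and 498 to 981 and 1138 (1.19 ± 0.18, adjusted p = 0.000717) and UBC6 by 0.47 ± 0.15, a call lost without 0 h replicate 1, 0 h replicate 2 or 4 h replicate 2 (adjusted p from 0.0592 to 0.223) or with only the arrays of the times compared in the fit (0.0753). TRS65 fell from 579.6 and 546 to 162 and 155 (−1.83 ± 0.18, adjusted p = 8.41e-05), and PGI1, the glycolytic isomerase, from 4118 and 4216 to 1241 and 1133 (−1.81 ± 0.17, adjusted p = 5.56e-05). The 499 genes named only by a locus tag, most of them without a described role, gave 76 higher and 126 lower (15.2% and 25.3%, median −0.19), against 980 and 1139 of the 4950 others (19.8% and 23.0%). The 1168 genes in any of the 41 groups account for 310 of the rises and 280 of the falls, so that most of the calls lie outside them.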

How the data were processed

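Expression was measured on Affymetrix yeast GeneChips from total RNA of 10 samples, 2 at each of 5 times. Per the labels and the methods, the authors read the images with MAS 5.0 and deposited intensities that RMA had background-corrected, normalised across arrays and summarised by probe set. The sources used here do not give their versions. The deposited values are intensities on a linear scale, from 1.90 to 13817.

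Of 5716 probe sets, 5498 had 1 gene symbol and 218 had none. The probe set with the highest mean log2 intensity was kept for each of 5449 genes, 49 others were set aside, and 12 symbols were updated through the gene identifiers of their probe sets. For 115 genes the kept probe set is of a type shared with other sequences. Intensities were log2 transformed without a pseudocount and fitted with limma 3.58.1 (R 4.3.3), all 10 arrays in 1 model with a term for each time, which leaves 5 residual degrees of freedom. The contrasts were 4 h against 0 h and 4 h against the mean of 0.5, 1 and 12 h, with Benjamini-Hochberg adjusted p under 0.05 over all genes as the call. The number of arrays limits the precision. The fit was tested on simulated data. Tables and figures used Python 3.11.15, pandas 2.3.3, numpy 2.4.6 and matplotlib 3.10.9.

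Members and gene lists were chosen with earlier results of these data known. Genes to be named were the 15 largest rises and falls past the threshold with both replicate ratios of 1 sign; up to 4 largest changes in each list and every member called against the list's main direction; isozyme pairs called in opposite directions; the 8 highest and 8 lowest genes against the other ethanol times; all reference and haploid-specific genes; and the 4 genes with the widest gap between the 4 h arrays among those with a mean log2 of at least 8. Of the genes this rule gives, some are counted in their group without being named, among them most haploid-specific genes, given by their range, and members called against their list's direction such as SIT1, SMF1, PHO85, ERG13 and ERG24. RPL9A and RPS22A lie outside this rule. Levels named for other times follow the same genes. Alternatives were 2 other array scalings, removal of the dimmest 20% of genes, addition of 50 to each intensity, averaged probe sets, removal of shared probe sets, only the arrays of the times compared, a variance trend, a replicate term, all probe sets, and each array left out in turn.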

Additional observations from a re-analysis of the deposited data

Results flagged for a closer look

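The 218 probe sets to which no gene symbol could be given lie outside the comparison of named genes. In a fit over all probe sets, 49 of them passed as higher at 4 h and 42 as lower (22.5% and 19.3%), with a median log2 change of −0.003. The corresponding shares of the named genes were 19.4% and 23.2%. These probe sets were set apart because they carry signal that no comparison above uses, and what they report was not examined.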

How the results depend on the processing

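The numbers of genes called depended mainly on which arrays were used. With 1 array left out in turn, the genes higher at 4 h than at 0 h numbered from 689 to 1108 (1056 with all arrays) and those lower from 694 to 1344 (1265). Without 4 h replicate 2 the counts were 689 and 694, and without 0 h replicate 2 there were 810 lower genes. Against the mean of the other ethanol times the counts ran from 51 to 601 higher (556 with all arrays) and from 49 to 512 lower (392). Without 4 h replicate 1 these were 51 and 49, and without 4 h replicate 2 they were 328 and 247. Leaving out an array removes its replicate and 1 residual degree of freedom, and the array left alone is assumed to vary like the other times. Of the 248 genes that the naming rule gives, 194 kept direction and side of the threshold without 4 h replicate 2, 203 without 0 h replicate 2, 215 without 4 h replicate 1 and 220 without 0 h replicate 1. The sign turned in 8 of these genes, none of them past the threshold with all arrays or in the setting that turned it: without 0 h replicate 1 TIS11 and CLB1, without 0 h replicate 2 RNR1, SPT15 and YKL068W-A, without 4 h replicate 1 AQR1, and without 4 h replicate 2 MEP2, MET3 and YKL068W-A. With 1 array left out in turn, log2 changes from 0 h ran from -1.49 to 0.98 for TIS11, -0.59 to 0.27 for CLB1, -0.69 to 0.25 for RNR1, -0.146 to 0.022 for SPT15, -0.94 to 0.80 for YKL068W-A (0.73 without 0 h replicate 2), -0.91 to 0.014 for AQR1, -0.11 to 0.78 for MEP2 and -1.79 to 0.39 for MET3.

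With the replicate number as a block, 1218 genes were higher and 1507 lower against 0 h, and 745 higher and 633 lower against the other ethanol times, the last a change of over 1.5 times. Whether the numbers pair the arrays is not settled: the correlation of the difference of replicate 2 from replicate 1 was 0.0267 between 0 and 4 h and 0.0797 between 0 and 12 h, and from 0.204 to 0.565 between the other 8 pairs of times, among them 0.258, 0.565 and 0.436 between 4 h and 0.5, 1 and 12 h. The other scalings, the filter on dim genes, averaged probe sets, the variance trend and the other settings run left each of these counts within 1.5 times. The genes at least 2-fold different at 4 h from 0 h numbered 1097, and 738 with 50 added to each intensity. Low signal is the further limit, since the median standard error was 0.247 on the log2 scale in the dimmest 20% of genes and 0.18 in the brightest, and no detection call was used here.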
